A study of Mus musculus with 15 samples.

Results

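The 36 genes described here encode the subunits of integrins and the chains of laminins. They were all genes of 1 symbol on the arrays whose symbol names an integrin alpha subunit (Itga), an integrin beta subunit (Itgb) or a laminin chain (Lama, Lamb or Lamc). The rule took 18 alpha subunits, 8 beta subunits and 10 laminin chains by symbol, out of 19938 genes in all. Where a gene had more than 1 probe set, the one with the highest mean over all arrays was used.

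Integrins are receptors made of 1 alpha and 1 beta subunit that span the cell membrane and tie the matrix outside the cell to the actin or keratin cytoskeleton inside it. Laminins are secreted as trimers of an alpha, a beta and a gamma chain, and form the sheet of the basement membrane on which an epithelium rests. In the mammary gland, basal and luminal epithelial cells adhere to laminin through integrins, and the pair of Itga6 with Itgb4 anchors keratin filaments at hemidesmosomes.

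RNA was measured on 15 Affymetrix Mouse Gene arrays, 1 per sample, from proliferating cultures of mammary epithelial cells isolated from female mice at 8 weeks of age. The 5 groups of 3 arrays were cells with p53, Rb and MYC all labelled wild type (WT), cells with p53 deleted (p53-), cells with p53 and Rb deleted (p53- Rb-), cells with p53 deleted and MYC overexpressed (p53- Myc+), and cells with both deletions and MYC overexpressed (p53- Rb- Myc+). Cre recombinase delivered by adenovirus made the deletions and a retrovirus carried MYC, so every group but WT lacks p53, and 4 of the 5 comparisons lie within p53- cells. The labels do not say whether WT cells received a control virus. They also leave out if the 3 arrays of a group were separate mice or cultures, so that p-values speak only of the spread among arrays, which may be technical. Values are probe set intensities on a linear scale with no unit of mass, and they are not compared between genes, because each probe set has its own brightness.

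Median intensities of the 15 arrays were 41.28 to 54.9. Arrays of a group correlated across genes at r from 0.963 to 0.989, and arrays of different groups at r from 0.775 to 0.968. Rb1, which encodes Rb, had intensities of 86.5 to 103.8 in WT, 147 to 181 in p53- and 52.7 to 64.2 in p53- Rb- arrays. It read 26.8 to 48.0 in p53- Myc+ and 17.9 to 20.0 in p53- Rb- Myc+ arrays. Rb1 was thus lower with the Rb- label on either side of the Myc+ label. The p53- Myc+ arrays, which lack the Rb- label, nevertheless lay below all p53- Rb- arrays. The Myc probe set read lower in the 6 arrays labelled Myc+ (87.1 to 162) than in the other 9 (779 to 1046). The labels do not say which MYC sequence the virus carried, nor whether this probe set detects it, so the groups are called by their label throughout. The transcript of p53 was not analysed here. The summed intensity of 8 luminal epithelial markers was 14510 to 16580 in the 9 arrays without the Myc+ label, 156 to 216 in p53- Myc+ and 588 to 676 in p53- Rb- Myc+ arrays, where 5 of the 8 had a group mean under 16. The sum of 8 basal and myoepithelial markers was 6088 to 9947 without the label, 2190 to 2558 in p53- Myc+ arrays (5 of 8 under 16) and 1758 to 1995 in p53- Rb- Myc+ arrays (4 of 8 under 16). Group means of the epithelial keratins Krt18, Krt5 and Krt14 were 4.78, 5.51 and 9.95 in p53- Myc+ arrays, so defining markers of the labelled cell type stood at the bottom of the scale there, and the contractile gene Acta2 (2321) made up most of the basal sum. In bulk RNA, fewer cells of a type and less RNA per cell cannot be told apart.

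Passing here means an adjusted p under 0.05 in limma (Benjamini-Hochberg, over 19938 genes), and changes are differences in log2(intensity + 16), ± SE, between groups of 3 arrays. Between p53- Myc+ and p53- arrays, 22 of the 36 genes passed (4 rose and 18 fell), where 33.3% of all genes passed (13.1% higher and 20.2% lower). Between p53- Rb- Myc+ and p53- Rb- arrays, 26 passed (2 rose and 24 fell), against 36.3% of all genes (17.6% higher and 18.7% lower). Between p53- Rb- and p53- arrays, 14 passed (11 rose and 3 fell), against 19.8% (9.36% and 10.4%). Between p53- Rb- Myc+ and p53- Myc+ arrays, 9 passed (6 rose and 3 fell), against 4.69% (3.29% and 1.40%). Between p53- and WT arrays, 8 passed (4 rose and 4 fell), against 29.0% (19.3% and 9.72%). The arrays of both groups did not overlap for 24, 29, 21, 14 and 12 of the 36 genes in the same order of comparisons, against 42.6%, 51.2%, 40.0%, 20.5% and 40.3% of all genes. Itga4, Itga10, Itgad, Itgae and Itgax, 5 alpha subunits, passed none of the 5 comparisons. For 18 of the 36 genes the mean of at least 1 group reached an intensity of 100, and their values are given array by array. The other 18 stayed under a group mean of 100 in every group.

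**Figure D1:**
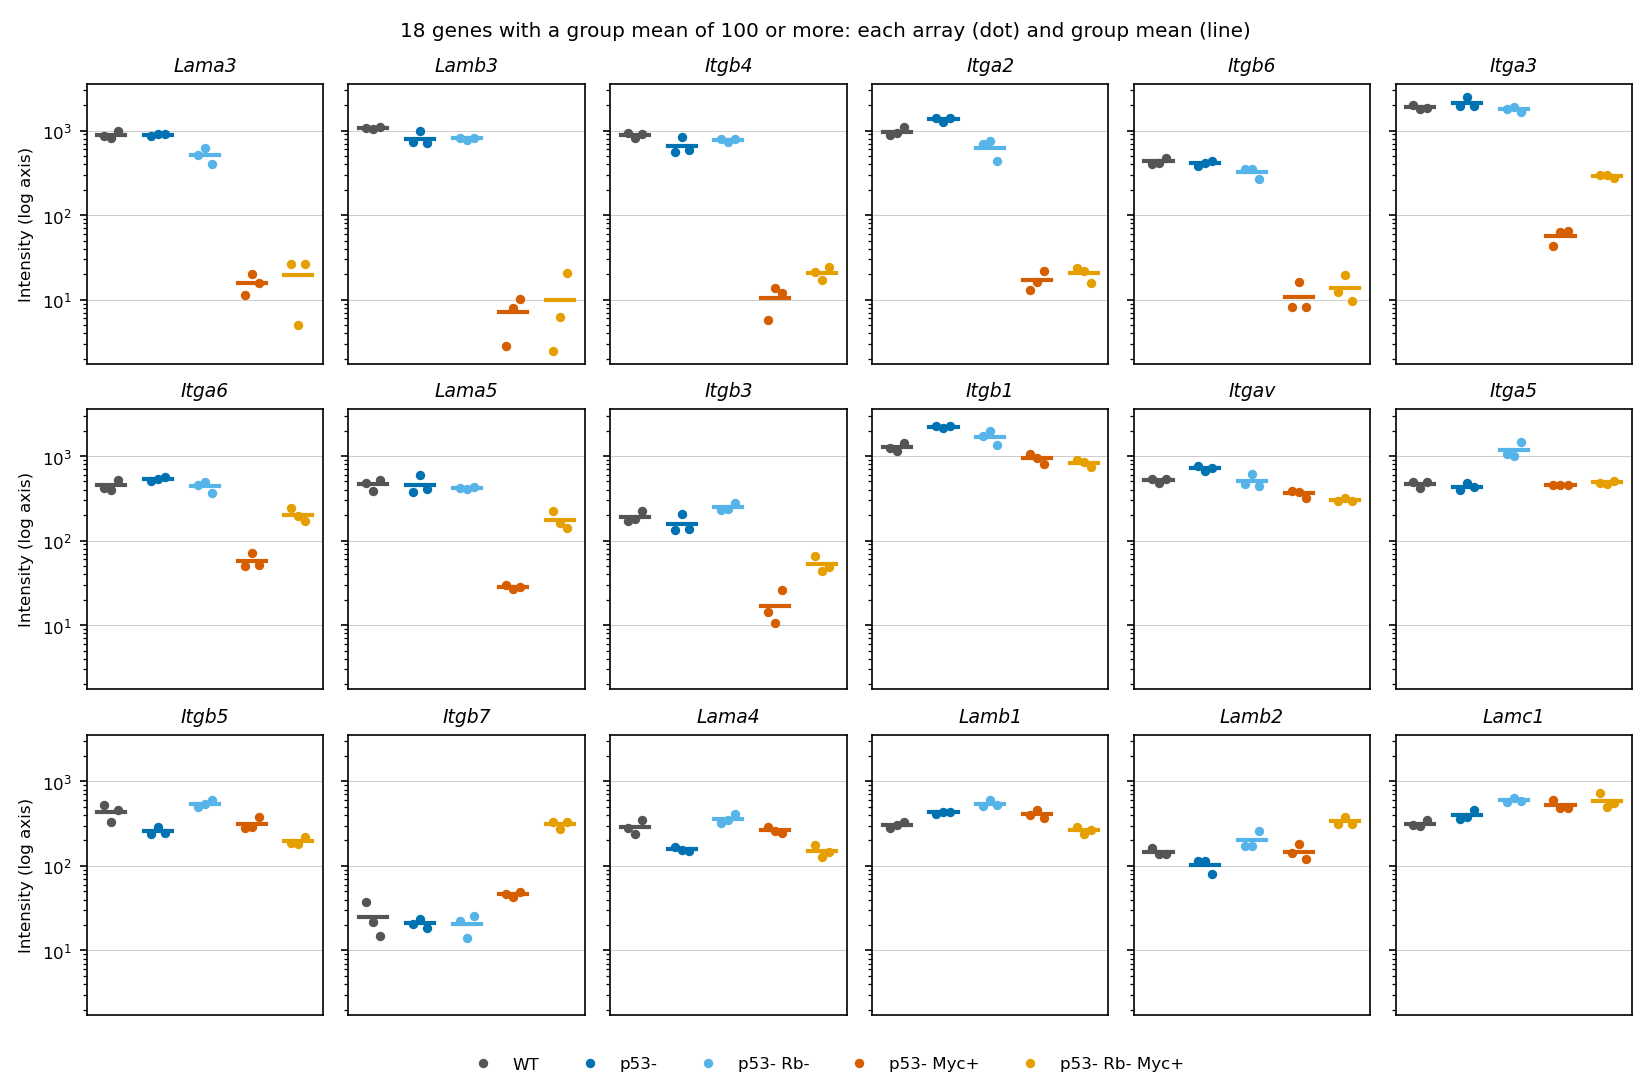
Intensity (log axis) of the 18 genes with a group mean of 100 or more, each dot 1 array and each line the mean of 3 arrays, coloured by group. The 6 arrays labelled Myc+ lie far below the other 9 for Lama3, Lamb3, Itgb4, Itga2 and Itgb6, with every Myc+ value of these 5 genes under 27, and Itgb7 is highest in p53- Rb- Myc+ arrays (275 to 329).

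The largest differences in these genes went with the Myc+ label, and most were decreases. The median change of the 36 genes was -0.48 between p53- Myc+ and p53- arrays, where the median of all genes was -0.09, and -1.03 between p53- Rb- Myc+ and p53- Rb- arrays, where it was 0.12. These comparisons share no array. All 18 genes that fell without the Rb- label also fell with it, which is 100% of the 18 and 75.0% of the 24. Among all genes, 2580 fell in both, 63.9% of those that fell in the first comparison and 69.2% of those that fell in the second. Among the 36, 7 fell at least 8-fold in the first comparison (1.29% of all genes did) and 5 in the second (1.30%).

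Lama3 and Lamb3, chains of the epithelial laminin that underlies hemidesmosomes, fell to the bottom of the scale. Lama3, its alpha chain, had intensities of 857, 809.5 and 989 in the WT, 859.6, 899 and 907 in the p53-, 521, 624 and 402 in the p53- Rb-, 11.3, 20 and 15.7 in the p53- Myc+ and 26.7, 4.96 and 26.7 in the p53- Rb- Myc+ arrays. Its change was -4.84 ± 0.22 (adjusted p = 5.63e-14) without and -3.96 ± 0.22 (adjusted p = 1.95e-12) with the Rb- label, and all 6 Myc+ arrays lay far below all others. Lamb3, its beta chain, read 1066, 1035 and 1110 in the WT, 726, 979.9 and 712 in the p53-, 822, 783 and 823 in the p53- Rb-, 2.85, 8.05 and 10.3 in the p53- Myc+ and 2.46, 6.32 and 20.7 in the p53- Rb- Myc+ arrays. It changed by -5.15 ± 0.21 (adjusted p = 5.32e-15) and -5.06 ± 0.21 (adjusted p = 8.64e-15). All Myc+ values of both chains were below the median of every array, and the files give no detection call, so the sizes of these decreases rest on the constant added before taking logs. With 1 in place of 16, the Lamb3 changes were -6.77 and -6.63, and with 64 they were -3.60 and -3.57.

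The receptors for that laminin fell with it, to different depths. Itgb4, the beta subunit of hemidesmosomes, read 934, 812 and 912 in the WT, 563, 839.9 and 591 in the p53-, 787, 734 and 799 in the p53- Rb-, 5.69, 13.8 and 12.1 in the p53- Myc+ and 21.2, 17.2 and 24.2 in the p53- Rb- Myc+ arrays. It changed by -4.67 ± 0.17 (adjusted p = 1.45e-15) and -4.42 ± 0.17 (adjusted p = 4.67e-15), and the Myc+ arrays did not overlap any other. Itga6, its partner, read 423, 400.2 and 524 in the WT, 510.3, 536 and 564 in the p53-, 456, 498 and 366 in the p53- Rb-, 49.6, 70.8 and 51.9 in the p53- Myc+ and 239.6, 198 and 171 in the p53- Rb- Myc+ arrays. It fell by less, with -2.92 ± 0.17 (adjusted p = 5.12e-12) without the Rb- label and -1.06 ± 0.17 (adjusted p = 3.93e-05) with it. The difference between these changes, 1.86 ± 0.25, passed (adjusted p = 2.46e-05). In that test 12 of the 36 passed (5 higher and 7 lower), against 13.6% of all genes (8.78% and 4.86%). Itga3, which pairs with Itgb1 as another laminin receptor, read 1985, 1801 and 1862 in the WT, 1954, 2516 and 1964 in the p53-, 1822, 1884 and 1657 in the p53- Rb-, 42.7, 63.3 and 64.3 in the p53- Myc+ and 299, 296 and 272 in the p53- Rb- Myc+ arrays. Its change was -4.90 ± 0.16 (adjusted p = 2.13e-16) without and -2.56 ± 0.16 (adjusted p = 1.5e-11) with the Rb- label, and these differed by 2.33 ± 0.23 (adjusted p = 4.54e-07). The 3 p53- Rb- Myc+ arrays of Itga6 and Itga3 thus lay between the p53- Myc+ arrays and all 9 arrays without the label, with no overlap. Itga7, a laminin receptor best known from muscle, ranged only from 11.1 to 41.8 over the 15 arrays and also fell (-0.56 ± 0.18, adjusted p = 0.0218 and -0.65 ± 0.18, adjusted p = 0.00793), though the first call was lost under 6 of 15 alternatives, array medians centred among them.

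Lama5, the alpha chain of the laminin found in most adult epithelial basement membranes, was also lowest in p53- Myc+ arrays. It read 477, 387 and 519 in the WT, 377, 593 and 408 in the p53-, 415, 411 and 427 in the p53- Rb-, 29.9, 26.9 and 27.9 in the p53- Myc+ and 222, 162 and 142 in the p53- Rb- Myc+ arrays. The change was -3.40 ± 0.18 (adjusted p = 1.01e-12) without and -1.20 ± 0.18 (adjusted p = 1.63e-05) with the Rb- label, differing by 2.19 ± 0.26 (adjusted p = 6.14e-06), and the p53- Rb- Myc+ arrays again lay apart from both sides. Of the remaining 4 laminin chains with a group mean of 100 or more, none fell without the Rb- label, and Lama4 and Lamb1 fell with it. Lama4, the alpha chain of vessel and mesenchymal laminin, read 278, 239.7 and 352 in the WT, 169, 155 and 149 in the p53-, 321, 348 and 412 in the p53- Rb-, 291, 261 and 247 in the p53- Myc+ and 176, 128 and 144 in the p53- Rb- Myc+ arrays. With the Myc+ label it rose where the Rb- label was absent (0.70 ± 0.17, adjusted p = 0.00237) and fell where it was present (-1.19 ± 0.17, adjusted p = 6.28e-06). Lamb1, a beta chain present in most early laminins, read 284, 305 and 334 in the WT, 415, 438 and 432 in the p53-, 507, 601 and 525 in the p53- Rb-, 396, 458 and 371 in the p53- Myc+ and 287, 238 and 267 in the p53- Rb- Myc+ arrays. Its change was -0.07 ± 0.15 without the Rb- label, which did not pass, and -1.0 ± 0.15 (adjusted p = 1.32e-05) with it. Lamb2, the beta chain of kidney and synaptic laminin, read 161, 137 and 138 in the WT, 115, 113 and 80.3 in the p53-, 174, 174 and 257 in the p53- Rb-, 141, 179.5 and 119 in the p53- Myc+ and 315, 382 and 310.3 in the p53- Rb- Myc+ arrays. It did not pass without the Rb- label (0.45 ± 0.19, adjusted p = 0.0687) and rose with it (0.71 ± 0.19, adjusted p = 0.0046). Lamc1, the gamma chain of most laminins, read 305, 298 and 346 in the WT, 358, 376 and 454 in the p53-, 575, 639 and 579 in the p53- Rb-, 595, 479 and 485 in the p53- Myc+ and 727, 494 and 552 in the p53- Rb- Myc+ arrays. It passed neither Myc+ comparison (0.38 ± 0.17 and -0.03 ± 0.17). Of the other laminin chains, all under a group mean of 100, Lama1 and Lama2 fell in both comparisons (-0.90 ± 0.19, adjusted p = 0.000638 and -1.91 ± 0.19, adjusted p = 2.95e-08 for Lama2, the muscle laminin chain) and Lamc3 passed neither.

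Among the receptors for collagen, Itga2 stood out. It read 898, 938 and 1090 in the WT, 1404, 1277 and 1425 in the p53-, 686, 745 and 443 in the p53- Rb-, 12.9, 16.2 and 21.9 in the p53- Myc+ and 23.96, 21.98 and 15.7 in the p53- Rb- Myc+ arrays. The changes were -5.40 ± 0.18 (adjusted p = 3.16e-16) and -4.10 ± 0.18 (adjusted p = 3.8e-14), and the Myc+ arrays, all at 24.0 or less, lay below all others. Itga1, the other collagen receptor known from many cell types, stayed between 6.61 and 37.4 on all arrays. It fell in both comparisons (-0.54 ± 0.19, adjusted p = 0.0294 and -0.90 ± 0.19, adjusted p = 0.000554), and the first call was lost under 8 of 15 alternatives, array medians centred and 64 added among them. Itga11, a collagen receptor of mesenchymal cells, ranged from 16.4 to 124 and passed only with the Rb- label (-1.55 ± 0.18, adjusted p = 4.43e-07), while without it the change was -0.46 ± 0.18 (adjusted p = 0.0573). The difference between both changes passed (-1.09 ± 0.26, adjusted p = 0.00705). Itga10, the cartilage collagen receptor, passed neither.

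Among integrins that bind the Arg-Gly-Asp motif of fibronectin, vitronectin and latent TGF-beta, several fell in both comparisons, while Itga5 and Itgb5 fell only with the Rb- label. Itgb6, an epithelial subunit that activates latent TGF-beta, read 402, 414 and 480.5 in the WT, 378, 414 and 441 in the p53-, 352, 355 and 269.8 in the p53- Rb-, 8.19, 16.3 and 8.20 in the p53- Myc+ and 12.2, 19.4 and 9.78 in the p53- Rb- Myc+ arrays. It changed by -4.00 ± 0.17 (adjusted p = 2.11e-14) and -3.52 ± 0.17 (adjusted p = 1.92e-13), and by -2.66 and -2.32 with 64 added. Itgb3, the vitronectin receptor subunit of platelets and osteoclasts, read 170.2, 182 and 224 in the WT, 132, 206 and 135 in the p53-, 232, 233 and 278 in the p53- Rb-, 14.2, 10.6 and 25.9 in the p53- Myc+ and 64.7, 43.9 and 48.9 in the p53- Rb- Myc+ arrays. It changed by -2.40 ± 0.20 (adjusted p = 1.17e-09) (-1.44 with 64 added) and -1.95 ± 0.20 (adjusted p = 3.76e-08). Both genes had all Myc+ arrays below all others. Itgb8, a partner of Itgav under a group mean of 100, fell too (-1.42 ± 0.19, adjusted p = 2.48e-06 and -1.26 ± 0.19, adjusted p = 1.24e-05), as did Itga8 (-1.04 ± 0.17, adjusted p = 4.2e-05 and -1.07 ± 0.17, adjusted p = 2.71e-05).

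The subunits that many of these pairs share fell by smaller amounts. Itgb1, the partner of most alpha subunits, read 1228, 1148 and 1442 in the WT, 2240, 2117 and 2258 in the p53-, 1712, 1972 and 1333 in the p53- Rb-, 1048, 943 and 812 in the p53- Myc+ and 904, 857 and 736 in the p53- Rb- Myc+ arrays. Its changes were -1.23 ± 0.17 (adjusted p = 3.82e-06) and -0.98 ± 0.17 (adjusted p = 7.28e-05). Itgav, the alpha partner of Itgb3, Itgb5, Itgb6 and Itgb8, read 533, 484 and 532 in the WT, 762, 665 and 724 in the p53-, 472, 604 and 441 in the p53- Rb-, 389, 379 and 321 in the p53- Myc+ and 297, 321 and 294 in the p53- Rb- Myc+ arrays, and changed by -0.95 ± 0.16 (adjusted p = 3.75e-05) and -0.69 ± 0.16 (adjusted p = 0.00118). Every Myc+ array of both genes lay below every p53- and p53- Rb- array, but no array fell under 294.

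The Myc+ changes of Itga5 and Itgb5 differed with the Rb- label. Itga5, the alpha subunit of the main fibronectin receptor, read 486, 418 and 498 in the WT, 391, 479.8 and 434 in the p53-, 1062, 1012 and 1474 in the p53- Rb-, 453, 456 and 456 in the p53- Myc+ and 483, 467 and 509 in the p53- Rb- Myc+ arrays. The 3 p53- Rb- arrays lay above the other 12, which ranged from 391 to 509. Its Myc+ change was 0.07 ± 0.16 without the Rb- label and -1.24 ± 0.16 (adjusted p = 2.03e-06) with it. Itgb5, a vitronectin receptor subunit, read 519.9, 330 and 463 in the WT, 238, 289 and 248 in the p53-, 502, 539 and 594 in the p53- Rb-, 279.8, 286 and 382 in the p53- Myc+ and 187, 181 and 219 in the p53- Rb- Myc+ arrays. Its Myc+ change was 0.27 ± 0.18 without and -1.41 ± 0.18 (adjusted p = 1.21e-06) with the Rb- label. The differences between these changes passed for both (-1.30 ± 0.23, adjusted p = 0.000572, for Itga5 and -1.68 ± 0.25, adjusted p = 0.000112, for Itgb5). Itga9, a tenascin receptor between 6.18 and 48.5, passed only with the Rb- label (-1.10 ± 0.21, adjusted p = 0.00029), and its difference passed as well (-1.26 ± 0.30, adjusted p = 0.00744).

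The leukocyte integrins had low intensities, with Itgb7 as the exception. Itgb7, which pairs with Itga4 or Itgae in lymphocytes that home to the gut, read 37.7, 21.9 and 14.9 in the WT, 20.5, 23.5 and 18.6 in the p53-, 22.2, 13.9 and 25.4 in the p53- Rb-, 46.1, 43.1 and 49.6 in the p53- Myc+ and 327, 275 and 329 in the p53- Rb- Myc+ arrays. It rose with the Myc+ label by 0.76 ± 0.19 (adjusted p = 0.00255) without and by 3.17 ± 0.19 (adjusted p = 3.66e-12) with the Rb- label, and the difference was 2.41 ± 0.26 (adjusted p = 1.69e-06). The 3 p53- Rb- Myc+ arrays lay above the 3 p53- Myc+ arrays, which lay above the other 9, and the size without the Rb- label was 0.38 with 64 added. Its known partners passed no comparison, with Itga4 between 17.98 and 51.03 and Itgae between 16.9 and 40.8. Itgal, the alpha subunit of a lymphocyte receptor for Icam1, stayed between 11.5 and 39.9 and rose only without the Rb- label (0.49 ± 0.17, adjusted p = 0.0294), which was lost under 4 of 15 alternatives. Itgb2, the shared leukocyte beta subunit, stayed between 7.83 and 44.5 and fell in both (-0.51 ± 0.18, adjusted p = 0.0324 and -0.60 ± 0.18, adjusted p = 0.0112). Its first call was lost under 8 of 15 alternatives, including array medians centred, quantile normalization and 64 added, and the second ended without p53- Rb- Myc+ replicate 1 or replicate 2. Itgam, the macrophage subunit, passed neither (0.0105 to 20.0 over all arrays). The summed intensity of 8 leukocyte markers was 479 to 623 in p53-, 160 to 177 in p53- Myc+ and 229 to 266 in p53- Rb- Myc+ arrays. Cd14 made up most of the sum in p53- arrays (group mean 327.8). Itga2b, the platelet subunit, rose without the Rb- label (0.86 ± 0.30, adjusted p = 0.0291), a call that rested on p53- replicate 2 (4.98, against 29.1 and 41.8 in the other p53- arrays) and ended without it (0.44, adjusted p = 0.251).

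**Figure D2:**
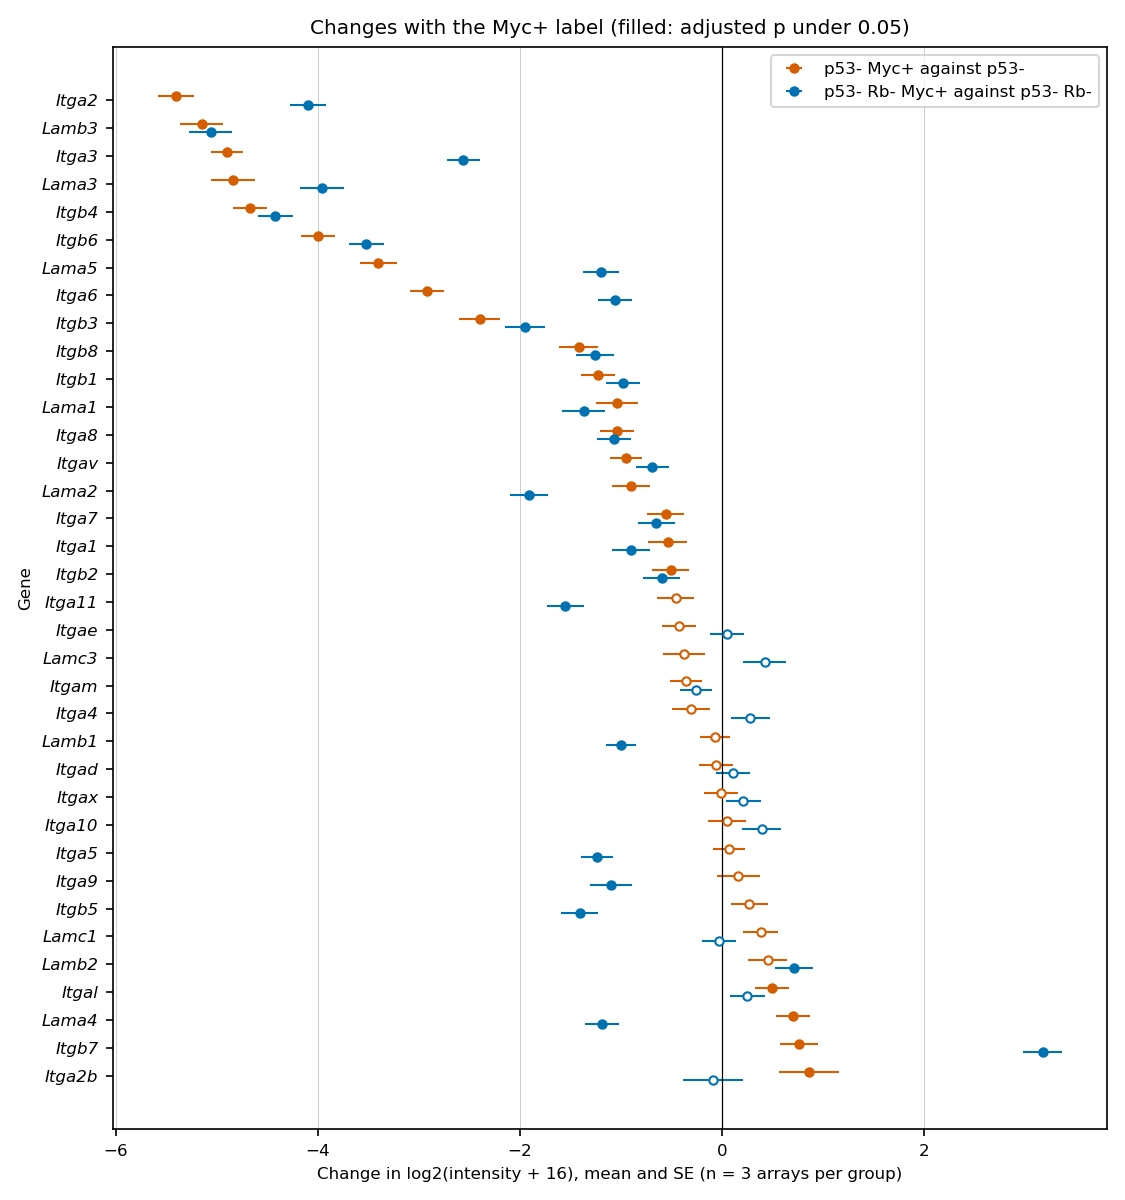
Change in log2(intensity + 16) with the Myc+ label for each of the 36 genes, orange for p53- Myc+ minus p53- and blue for p53- Rb- Myc+ minus p53- Rb-; points are means, bars the SE (n = 3 arrays per group), and filled points passed. Changes run from -5.40 (Itga2) to 3.17 (Itgb7), and for Itga3, Lama5 and Itga6 the blue point lies nearer 0 than the orange.

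In the arrays labelled Myc+, luminal and basal epithelial markers fell together with these genes, 8 of 8 luminal markers in both comparisons (median changes -5.75 and -5.73) and 6 and 7 of 8 basal markers (median changes -3.12 and -3.95). Fibroblast markers did not move as a block: 5 of 8 rose and 2 fell without the Rb- label, and 1 rose and 6 fell with it. The part of these markers in the results was not tested. The count without the Rb- label moved somewhat with the scaling, to 6 that rose and 15 that fell when arrays were centred on their medians, and to 5 and 15 after quantile normalization. Under every alternative run, 17 of the 22 calls without and 24 of the 26 calls with the Rb- label held, including those of Lama3, Lamb3, Lama5, Itga2, Itga3, Itga6, Itgb1, Itgb3, Itgb4, Itgb6, Itgb7 and Itgav.

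Promoter sequences are shown for 5 genes with large Myc+ changes, Itga2, Lamb3, Itga3 and Lama5, which fell, and Itgb7, which rose, chosen after their values were seen. Each is the 250 bases before the start of transcription in RefSeq (GRCm38.p6), 5′ to 3′ on the strand of the gene, and where RefSeq lists more than 1 start the window farthest upstream is shown. They lie at chr1:193301744-193301993 on the plus strand for Lamb3, and on the minus strand at chr13:114932101-114932350 for Itga2, chr11:95076715-95076964 for Itga3, chr2:180225860-180226109 for Lama5 and chr15:102231936-102232185 for Itgb7. Capitals mark CACCTG on either strand, the E-box letters that the repressors Zeb and Snai are known to bind.
Itga2: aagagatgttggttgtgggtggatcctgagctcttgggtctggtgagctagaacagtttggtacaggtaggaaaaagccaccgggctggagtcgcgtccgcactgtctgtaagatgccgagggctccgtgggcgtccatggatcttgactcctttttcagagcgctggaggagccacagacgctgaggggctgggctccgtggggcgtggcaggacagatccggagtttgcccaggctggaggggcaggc
Lamb3: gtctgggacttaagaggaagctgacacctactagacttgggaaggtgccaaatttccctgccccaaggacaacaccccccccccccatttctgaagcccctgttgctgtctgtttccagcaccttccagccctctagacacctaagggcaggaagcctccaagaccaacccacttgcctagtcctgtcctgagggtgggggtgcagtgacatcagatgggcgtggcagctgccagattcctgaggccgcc
Itga3: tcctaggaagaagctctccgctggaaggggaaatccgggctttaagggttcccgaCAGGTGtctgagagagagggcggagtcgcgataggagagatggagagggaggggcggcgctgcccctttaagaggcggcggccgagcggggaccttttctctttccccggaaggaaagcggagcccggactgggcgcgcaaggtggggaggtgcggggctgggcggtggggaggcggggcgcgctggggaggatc
Lama5: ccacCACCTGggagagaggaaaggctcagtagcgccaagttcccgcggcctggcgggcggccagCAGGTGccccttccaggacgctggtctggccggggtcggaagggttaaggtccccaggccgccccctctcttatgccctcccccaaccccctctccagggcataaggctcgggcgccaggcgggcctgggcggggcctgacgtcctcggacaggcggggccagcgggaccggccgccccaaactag
Itgb7: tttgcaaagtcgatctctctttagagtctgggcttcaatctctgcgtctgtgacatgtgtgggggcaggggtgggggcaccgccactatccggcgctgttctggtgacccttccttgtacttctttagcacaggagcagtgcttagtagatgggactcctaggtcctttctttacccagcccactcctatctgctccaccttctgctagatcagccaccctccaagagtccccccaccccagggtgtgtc
The Itga3 window holds 1 match, the Lama5 window 2, and the Itga2, Lamb3 and Itgb7 windows none. RefSeq lists another start for Lamb3 and for Itga3, and there the matches are the other way round, with 1 in the Lamb3 window (chr1:193301993-193302242) and none in the Itga3 window (chr11:95069199-95069448). Promoters were listed for 23 of the 36 genes, in 26 windows. CACCTG occurred in 8 of these (30.8%), against 17.2% of all 32851 windows. CACGTG, the E-box that Myc is known to bind, occurred in 0 of the 26, where 6.02% of all windows hold it. TGANTCA, the AP-1 site, occurred in 1 (3.85%, against 6.75%), and GGCGGGA, an E2F core, in 2 (7.69%, against 9.75%). All were searched on both strands, no window held overlapping letters of both E-boxes, and a match of letters does not show a binding site.

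Many genes of the machinery around integrins and laminins fell with the Myc+ label. Of all genes, 20.2% fell and 13.1% rose without the Rb- label, and 18.7% fell and 17.6% rose with it. Of 11 genes of hemidesmosomes and other laminin receptors, 9 fell and 0 rose in each comparison. They included Krt5 (-6.30 ± 0.18 and -6.38 ± 0.18) and Krt14 (-6.15 ± 0.20 and -5.85 ± 0.20), the keratins of basal cells, and Col17a1 (-4.02 ± 0.21 and -3.81 ± 0.21), the collagen of hemidesmosomes. Krt5 and Krt14 are also among the basal markers counted above. Of 25 measured adaptors and focal adhesion genes, 14 fell and 2 rose without the Rb- label, and 20 fell and 0 rose with it. The largest was Fermt1, the epithelial kindlin that activates integrins (-5.19 ± 0.16 and -4.57 ± 0.16), followed by Ptk2b, a focal adhesion kinase (-2.37 ± 0.17 and -2.92 ± 0.17). Of 18 basement membrane partners of laminins, 9 fell in each comparison and 2 and 3 rose. Col18a1 (-3.68 ± 0.20 and -3.73 ± 0.20), Col4a1 (-2.67 ± 0.16 and -2.63 ± 0.16) and Agrn (-2.70 ± 0.17 and -2.67 ± 0.17) fell, whereas Nid1, which links laminin to collagen IV, rose (0.72 ± 0.16 and 0.90 ± 0.16). Of 22 measured other ligands of integrins, 10 fell and 6 rose without, and 13 fell and 3 rose with the Rb- label. Fn1, which encodes fibronectin, fell (-2.31 ± 0.14 and -2.94 ± 0.14), as did Tnc, which encodes tenascin-C (-2.93 ± 0.16 and -5.43 ± 0.16), and Vcam1, a ligand of Itga4, rose (3.58 ± 0.21 and 2.27 ± 0.21).

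With the Rb- label in cells without the Myc+ label, 5 laminin chains rose together with Itga5 and Itgb5, while Itga2, Lama3 and Itgav fell. Of the 14 genes that passed, the smallest p was that of Itga5 (1.40 ± 0.16, adjusted p = 5.78e-06), whose 3 p53- Rb- arrays (1012 to 1474) lay above all p53- arrays (391 to 480). Lama4 rose (1.11 ± 0.17, adjusted p = 9.83e-05), as did Itgb5 (1.03 ± 0.18, adjusted p = 0.000324). Among the laminin chains, Lamb2 (0.87 ± 0.19, adjusted p = 0.00224), Lama2 (0.98 ± 0.19, adjusted p = 0.0009), Lamc1 (0.58 ± 0.17, adjusted p = 0.0175) and Lama1 (0.65 ± 0.21, adjusted p = 0.0354) rose too, so that 5 of 10 rose and 1 fell. The chain that fell was Lama3 (-0.79 ± 0.22, adjusted p = 0.0157), with p53- Rb- arrays at 402 to 624 and p53- arrays at 860 to 907. Itga2 fell (-1.14 ± 0.18, adjusted p = 0.000162), and so did Itgav (-0.50 ± 0.16, adjusted p = 0.0272). Itga11 (0.86 ± 0.18, adjusted p = 0.00203), Itga9 (0.65 ± 0.21, adjusted p = 0.0352), Itgb3 (0.62 ± 0.20, adjusted p = 0.0295) and Itga2b (0.86 ± 0.30, adjusted p = 0.0478) rose.

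The laminin receptors Itga3, Itga6 and Itgb4, and the laminin chains Lama5 and Lamb3, did not pass between these groups, with changes of -0.25 ± 0.16, -0.29 ± 0.17, 0.24 ± 0.17, -0.11 ± 0.18 and 0.02 ± 0.21. The median change of the 36 genes was 0.02, and that of all genes -0.08. Related genes rose as well: 8 of 18 basement membrane partners rose and 0 fell, with the smallest p for Col15a1 (2.19 ± 0.23) and Sparc (0.90 ± 0.14), 9 of 22 other integrin ligands rose and 0 fell, with the smallest p for the fibrillar collagen genes Col1a1 (1.43 ± 0.16) and Col3a1 (1.39 ± 0.16), and 9 of 25 adaptors rose and 2 fell, with the smallest p for Tns1, a tensin of the actin link (1.68 ± 0.17). Of all genes, 9.36% passed and were higher and 10.4% lower. Fibroblast markers rose too, 5 of 8 and none down. Their summed intensity was 3197 to 3447 in p53- and 5778 to 7299 in p53- Rb- arrays. Col1a1, Col1a2 and Col3a1 belong to both the ligand list and the fibroblast markers, so these counts are not independent. The part of the markers in these results was not tested. In every alternative run, 7 of the 14 calls held (Itga2, Itga5, Itga11, Itgb5, Lama2, Lama4 and Lamb2). The count was 9 when replicate 1 or 3 of p53- or replicate 1 of p53- Rb- was left out, and 8 without p53- Rb- replicate 3, and Itga2b ended without p53- replicate 2 (0.43, adjusted p = 0.268).

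Among the arrays labelled Myc+, 6 of the 36 genes rose with the Rb- label, among them the laminin receptor subunits Itga3 and Itga6 and the chain Lama5. Itgb7 rose by the largest amount (2.39 ± 0.19, adjusted p = 5.3e-09), then Lama5 (2.09 ± 0.18, adjusted p = 5.02e-08, and 1.36 with 64 added) and Itga3 (2.08 ± 0.16, adjusted p = 5.86e-09). Itga6 rose (1.57 ± 0.17, adjusted p = 1.49e-06), as did Lamb2 (1.12 ± 0.19, adjusted p = 0.000352). Itgb3 rose too (1.07 ± 0.20, adjusted p = 0.00108), by 1.65 with 1 added and 0.53 with 64 added. For each of these 6 genes, all p53- Rb- Myc+ arrays lay above all p53- Myc+ arrays, and the call held under every alternative run.

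Lama4 (-0.78 ± 0.17, adjusted p = 0.00598), Lamb1 (-0.60 ± 0.15, adjusted p = 0.0199) and Itgb5 (-0.64 ± 0.18, adjusted p = 0.0381) fell between the same groups. Replicate numbers were taken to pair these arrays, and in a fit of the groups compared alone the Lamb1 call ended with the replicate block (-0.60, adjusted p = 0.0616, 8 genes passing) and without it (-0.60, adjusted p = 0.0672). The Itgb5 call ended in that last fit (adjusted p = 0.0674) and with 1 added (-0.68, adjusted p = 0.0698). It also ended without p53- Myc+ replicate 2 or 3, and without p53- Rb- Myc+ replicate 1 or 2. That of Lamb1 also ended without p53- Myc+ replicate 2, and without p53- Rb- Myc+ replicate 2 or 3. The Lama4 call ended without p53- Rb- Myc+ replicate 2 (adjusted p = 0.0517). Lama3, Lamb3, Itga2 and Itgb6, which stood at the bottom of the scale in both groups, did not pass (0.10 ± 0.22, 0.11 ± 0.21, 0.15 ± 0.18 and 0.15 ± 0.17), nor did Itgb4 (0.49 ± 0.17, adjusted p = 0.135). Intensities that low may hold differences that could not be measured. Of the other lists, Tns1 was the only adaptor that passed (2.04 ± 0.17, rose), and 5 of 18 basement membrane partners rose and 0 fell, among them Col4a5 (1.36 ± 0.21), Col4a2 (1.13 ± 0.17) and Col4a1 (0.79 ± 0.16). Of 22 other ligands, 6 fell and 1 rose, with Tnc (-2.09 ± 0.16), Postn (-2.06 ± 0.19) and Thbs1 (-1.50 ± 0.16) the furthest down. Of all genes, 3.29% passed and were higher and 1.40% lower. Of the 11 hemidesmosome and laminin receptor genes, 0 passed in limma, with 4 at an unadjusted p under 0.05. Of the luminal markers Krt19 (2.47 ± 0.15) and Krt18 (0.97 ± 0.17) rose and 0 of 8 fell. Group means in p53- Myc+ and p53- Rb- Myc+ arrays were 75.58 and 489.3 for Krt19, but 4.78 and 23.85 for Krt18. Krt18 thus stayed at the bottom of the scale, and the size of its rise depends on the constant added. The part of these markers in the results was not tested.

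Whether the Rb- change differed with the Myc+ label was tested in the same fit, which is also the test of whether the Myc+ change differed with the Rb- label. In 5 genes the Rb- change was higher under the Myc+ label: Itgb7, Itga3, Lama5, Itga6 and Itga2. In 7 it was lower: Lama4, Itgb5, Itga5, Itga9, Itga11, Lama2 and Lamb1. Lama4 and Itgb5 rose with the Rb- label without Myc+ and fell with it under Myc+ (difference -1.89 ± 0.24, adjusted p = 1.42e-05, for Lama4). For Itga2 the difference was 1.29 ± 0.26 (adjusted p = 0.00198), with a fall of 1.14 without Myc+ and a change of 0.15 ± 0.18, from values already at the bottom of the scale, under it. Of the ligand list, 10 of 22 passed the test of the difference and all 10 were lower under Myc+, among them Postn (-2.60 ± 0.26), Tnc (-2.50 ± 0.22) and Col1a2 (-2.07 ± 0.23). Of all genes, 4.86% passed and were lower and 8.78% higher. Fibroblast markers, which share Col1a1, Col1a2 and Col3a1 with the ligand list, were lower in 6 of 8 and higher in 1. Their part was not tested.

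**Figure D3:**
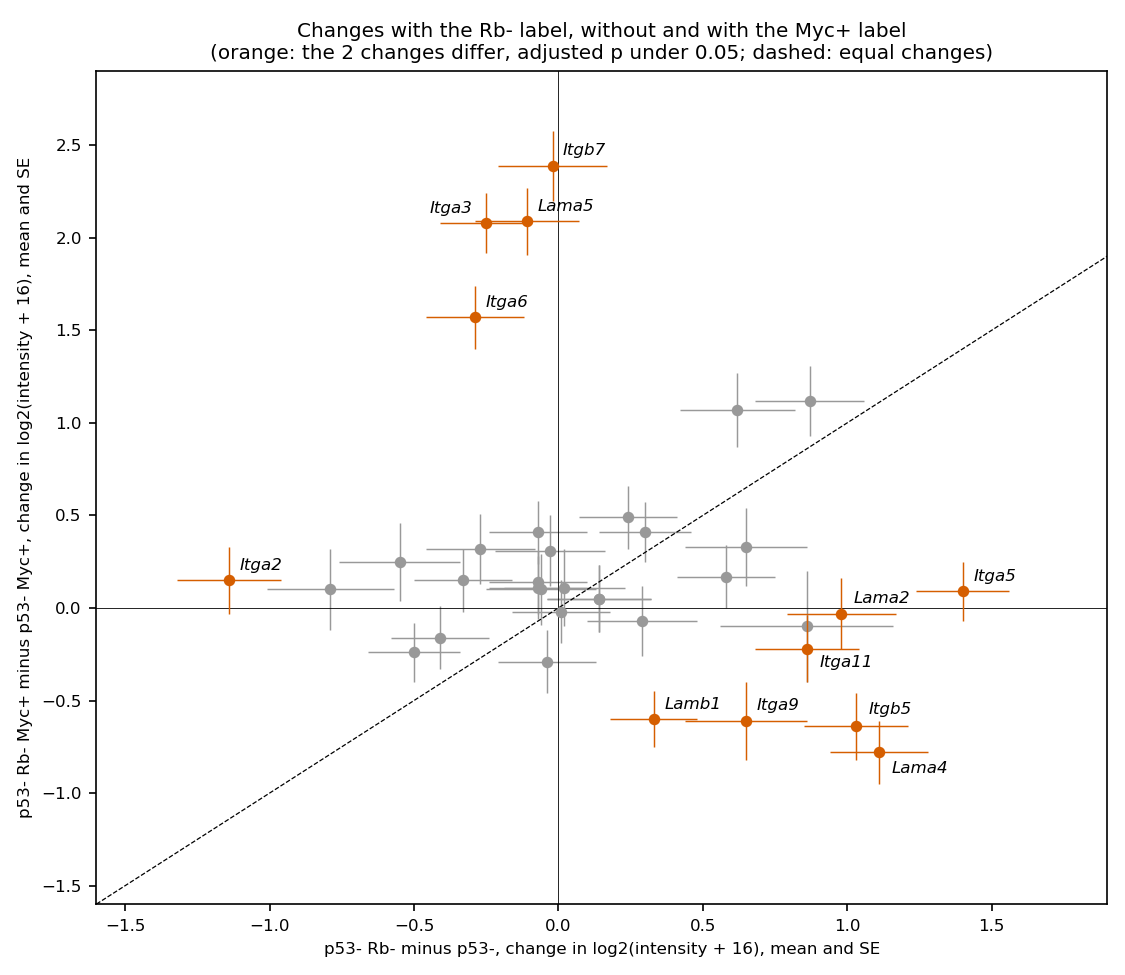
Change with the Rb- label in log2(intensity + 16), without the Myc+ label on the horizontal and with it on the vertical axis, for the 36 genes; points are means, bars the SE (n = 3 arrays per group), the dashed line marks equal changes, and orange marks the 12 genes whose changes differed. Itgb7, Lama5, Itga3 and Itga6 lie high on the vertical axis (1.57 to 2.39) near 0 on the horizontal, and Lama4 and Itgb5 lie at the lower right.

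Between p53- and WT arrays, the changes were smaller and mixed. Itgb1 rose (0.79 ± 0.17, adjusted p = 0.00149), as did Lamb1 (0.46 ± 0.15, adjusted p = 0.0261), Itgav (0.46 ± 0.16, adjusted p = 0.0305) and Lamc3, a gamma chain of low intensity (0.56 ± 0.21, adjusted p = 0.0492). Lama4 (-0.80 ± 0.17, adjusted p = 0.00135), Itgb5 (-0.71 ± 0.18, adjusted p = 0.00529), Itgam (-0.59 ± 0.16, adjusted p = 0.00972) and Itga2b (-0.98 ± 0.30, adjusted p = 0.0177) fell. Itgb5 and Lama4 were thus lower in p53- than in WT arrays and higher in p53- Rb- than in p53- arrays, 2 comparisons that share the p53- arrays. Of 8 leukocyte markers, 5 fell and 1 rose in p53- arrays, where 9.72% of all genes fell and 19.3% rose. Their sums were 2083 to 2410 in WT and 479 to 623 in p53- arrays. Cd14 made up most of these sums (group means 1566 in WT and 327.8 in p53- arrays). Ptprc was the marker that rose (19.57 in WT and 43.1 in p53- arrays). The part of these markers in the fall of Itgam was not tested. The median change of the 36 was -0.04, below that of all genes (0.12). Only the calls of Itgb1, Itgb5 and Lama4 held in every alternative run; 5 genes passed without p53- replicate 1 or replicate 3, and the split was 1 that rose and 6 that fell with arrays centred on their medians, and 3 and 5 after quantile normalization. Itga2b ended without p53- replicate 2 (-0.55, adjusted p = 0.137), and Lamc3 without WT replicate 3 (0.37, adjusted p = 0.216). The Lamc3 call was lost under 11 of 15 alternatives in all, 1 added, 64 added and quantile normalization among them. Those of Itgav and Lamb1 were each lost under 7 of 16.

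**Figure D4:**
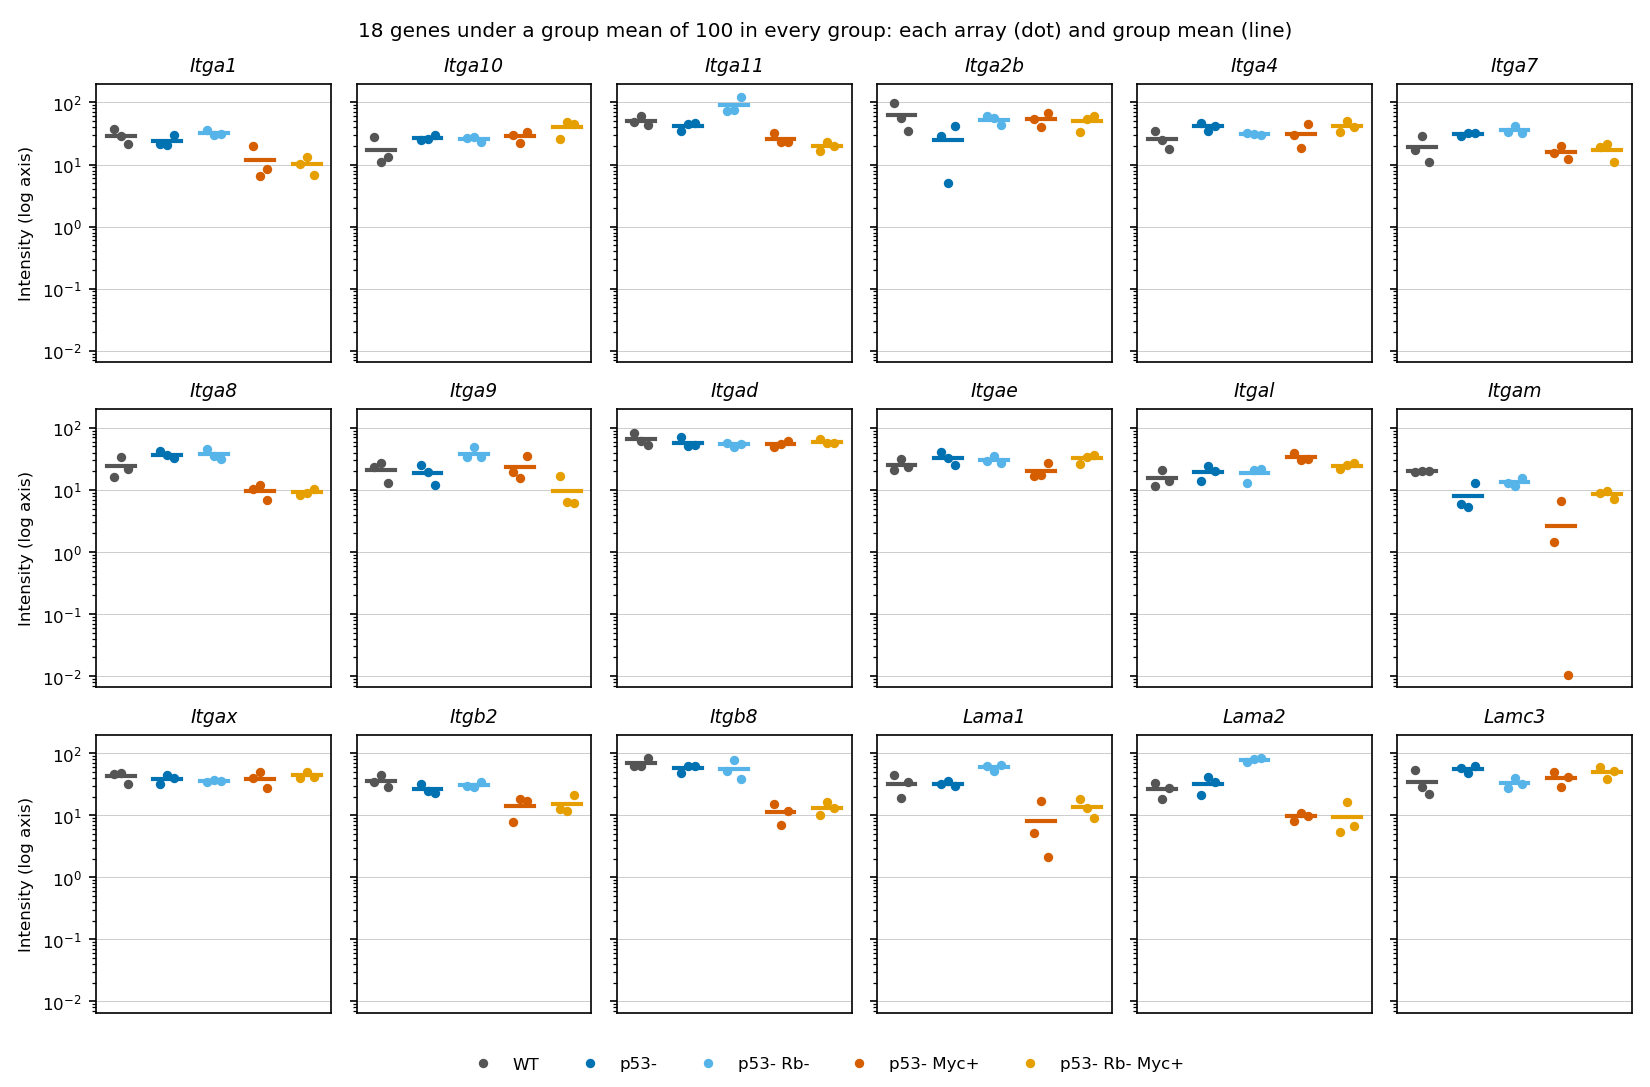
Intensity (log axis) of the 18 genes under a group mean of 100 in every group, each dot 1 array and each line the mean of 3 arrays, coloured by group. Most values lie between 5 and 80, and Itga8, Itgb8, Lama1 and Lama2 are lower in the 6 arrays labelled Myc+ than in the p53- and p53- Rb- arrays.

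Of the 18 genes of low intensity, Itgad, Itgax, Itga4, Itga10 and Itgae ranged over the 15 arrays from 49.1 to 83.2, 27.3 to 50.7, 17.98 to 51.03, 11 to 47.8 and 16.9 to 40.8. With the Myc+ label, 9 of the 18 passed without the Rb- label (2 rose and 7 fell, where 33.3% of all genes passed) and 9 with it (all fell, where 36.3% passed). Among the Rb- comparisons, 5 rose without the Myc+ label, where 9.36% of all genes passed and were higher. Under the Myc+ label 0 passed in limma, where 4.69% of all genes passed, and 3 had an unadjusted p under 0.05. The calls of Itga8, Itgb8, Lama1 and Lama2 held under every alternative run in both Myc+ comparisons, and those of Itga11 and Lama2 held likewise between p53- Rb- and p53- arrays. Itga8 read 32.1 to 41.8 in p53-, 31.6 to 45.2 in p53- Rb- and 6.86 to 11.9 in the Myc+ arrays, with no overlap. Lama2 read 71.4 to 83.0 in p53- Rb- arrays, above the other 12 arrays (5.32 to 41.6).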

How the data were processed

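For every array and probe set the authors deposited 1 intensity on a linear scale. The submitters' processing notes name Affymetrix Expression Console 1.1. How probe sets were summarised, scaled or called detected is not given in the sources used here. Of 35556 probe sets, 21789 named 1 gene and represented 19938 genes, each by its probe set of highest mean. The 36 genes had 37 probe sets, of which Itgad had 2.

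Changes were fitted on log2(intensity + 16) to the group means of all 15 arrays by limma 3.58.1 (R 4.3.3, lmFit then eBayes, 2-sided, Benjamini-Hochberg over all genes), checked on simulated data. All 36 genes were named, with array values where a group mean reached 100. Of each related list at most 4 genes were named per comparison, mostly those with the smallest p. Nid1 was named for its rise with the Myc+ label and not by this rule. The genes, lists and alternatives were chosen with earlier results of these data known. Replicate numbers were taken to pair p53- Myc+ with p53- Rb- Myc+ arrays, whose same-number deviations correlated at 0.102, 0.192 and 0.379. The pairing is an assumption read from these correlations, not from a label. Between p53- Myc+ and p53- arrays the same-number values were 0.125, 0.151 and -0.0945. Correlations this small do not establish that arrays were paired. The main fit used no pairing in any comparison. The replicate block was run as an alternative in every comparison, and calls that it ended are counted among those lost. Comparisons of p53- arrays with WT, p53- Rb- and p53- Myc+ arrays share those p53- arrays. Alternatives changed the constant added, the scaling, the filter, the probe set rule, the arrays fitted, the variance trend and the replicate block, or left out 1 array.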

Additional observations from a re-analysis of the deposited data

Results flagged for a closer look

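The Rb- change differed with the Myc+ label in 12 of the 36 genes, by a test of the difference itself, where 13.6% of all genes passed. It was higher under the label by 2.41 in Itgb7, 2.33 in Itga3, 2.19 in Lama5, 1.86 in Itga6 and 1.29 in Itga2. The difference was -1.89 in Lama4, -1.68 in Itgb5, -1.30 in Itga5, -1.26 in Itga9, -1.09 in Itga11, -1.01 in Lama2 and -0.93 in Lamb1. Every value is a difference of changes in log2(intensity + 16), and 11 of the 12 held under every alternative run. That of Lama2 ended with 1 added or without p53- replicate 1. Itga2 was already at the bottom of the scale in both groups labelled Myc+, so its difference rests on the change without the label.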

How the results depend on the processing

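No called change of a member changed sign under any alternative. With 1 added in place of 16, 5 members passed between p53- and WT and 9 between p53- Rb- and p53- arrays. Among genes at or above the median level only, 9 passed between p53- Rb- and p53-, 13 between p53- Myc+ and p53-, and 16 between p53- Rb- Myc+ and p53- Rb- arrays, since low members left the test. Fitting only the arrays compared gave 5 between p53- and WT. With the replicate block added to that fit, p53- against WT again gave 5, and p53- Rb- Myc+ set against p53- Myc+, the comparison taken as paired, gave 8. With the replicate block over all 15 arrays that comparison gave 9. The block ended no other call in the comparison taken as paired. Leaving out 1 array gave 5 to 8 members between p53- and WT, 8 to 12 between p53- Rb- and p53-, 19 to 22 between p53- Myc+ and p53-, 6 to 9 between p53- Rb- Myc+ and p53- Myc+, 25 to 26 between p53- Rb- Myc+ and p53- Rb-, and 11 to 13 for the difference of the Rb- changes. Over all genes it gave 3470 to 6094, 2098 to 4725, 5647 to 6372, 649 to 867, 5813 to 6800 and 1762 to 3234 in the same order. Centring arrays on their medians moved the median change of all genes between p53- Myc+ and p53- arrays from -0.09 to 0.11, and the share of passing genes that were higher from 39.2% to 59.2% (56.2% after quantile normalization). That share went from 66.5% to 52.5% between p53- and WT (51.6%), from 70.2% to 55.8% between p53- Rb- Myc+ and p53- Myc+ (59.4%), and from 64.4% to 45.1% for the difference of the Rb- changes (53.7%). The number of arrays limits precision, and without detection calls the sizes of changes to or from intensities under about 50 depend on the constant added, as in the values given for Lamb3, Itgb3 and Itgb6.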
